A study of Homo sapiens with 104 samples.

Results

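Among 24 numbered human lymphoblastoid lines, which are B cells kept growing in culture, 5 lines that expressed little MGMT and kept a usable array after MNNG are described here: lines 4, 9, 18, 19 and 20. A line was taken as low in MGMT when the mean of its untreated arrays was under 7 on the log2 scale of the deposited intensity plus 16, on which the lowest possible level is 5. That rule found 7 of the 24 lines. Lines 6 and 11 then dropped out because both of their MNNG arrays failed a spike-in criterion: the r2-P1-cre-5 control probe set lay over 2 log2 units below CreX-5, a probe set for the same added transcript. The 5 lines have 10 untreated arrays and 8 MNNG arrays out of 104 arrays from 26 lines. Line 4 kept only its replicate 2 after MNNG and line 20 only its replicate 1. The lines come from the NIH polymorphism discovery resource, and each was grown to mid log phase and either left untreated or exposed to MNNG; the sources used here give neither dose nor exposure time. The comparison groups are the 14 numbered lines at or above the MGMT threshold that kept an MNNG array (28 untreated and 19 MNNG arrays), called the MGMT-expressing lines below, and the lines TK6 and MT1. MT1 was derived from TK6 by selection for resistance to alkylation and is deficient in mismatch repair. Each numbered line stands for 1 donor's cells in culture, and the duplicates are not stated to be separate cultures, so a p-value computed from duplicates measures the spread between these arrays, which may be technical. The study asked how lymphoblastoid lines differ in expression and in killing when exposed to this DNA-damaging agent.

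MNNG is a methylating agent, and its most toxic product in DNA is a guanine methylated at an oxygen atom. MGMT, a methyltransferase, repairs that base by moving the methyl group onto itself, and each molecule works a single time. Where the base persists, it pairs with thymine during replication, and mismatch repair then acts on the mispair in a repeated, futile way that ends in DNA breaks, checkpoint signalling and death. Lymphoblastoid cells answer DNA breaks with a well-known set of induced genes, called damage targets here, which includes growth-arrest, feedback, death and repair genes.

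The lines were selected on the untreated MGMT level itself, so its values are a description. Untreated levels on the selection scale were 5.10 in line 4, 5.85 in line 9, 6.20 in line 18, 6.37 in line 19 and 6.74 in line 20, the line just inside the threshold. Line 7, just outside it, read 7.24. On the scale of all later values, MGMT in line 4 read 5.20 and 5.05 untreated and 5.27 with MNNG, which is close to the floor throughout. Line 9 read 5.96 and 5.83 untreated and 6.63 and 6.67 with MNNG. In line 18 the readings were 6.26 and 6.24 untreated and 6.93 and 7.02 with MNNG. The same direction was seen in line 19, with 6.23 and 6.59 untreated and 7.04 and 7.01 with MNNG. Line 20 read 6.83 and 6.71 untreated and 7.77 with MNNG. In all 5 lines, then, both untreated arrays lay below every MNNG array. The differences of means were 0.14 in line 4, 0.75 in line 9, 0.73 in line 18, 0.61 in line 19 and 1.00 in line 20. The MGMT-expressing lines had untreated levels of 7.39 to 8.07 (median 7.73) and MGMT changes of -0.34 to 0.38 (median 0.27), above 0 in 13 of 14. TK6 changed by -0.04 and MT1 by -0.13, both from levels near the floor.

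**Figure D1:**
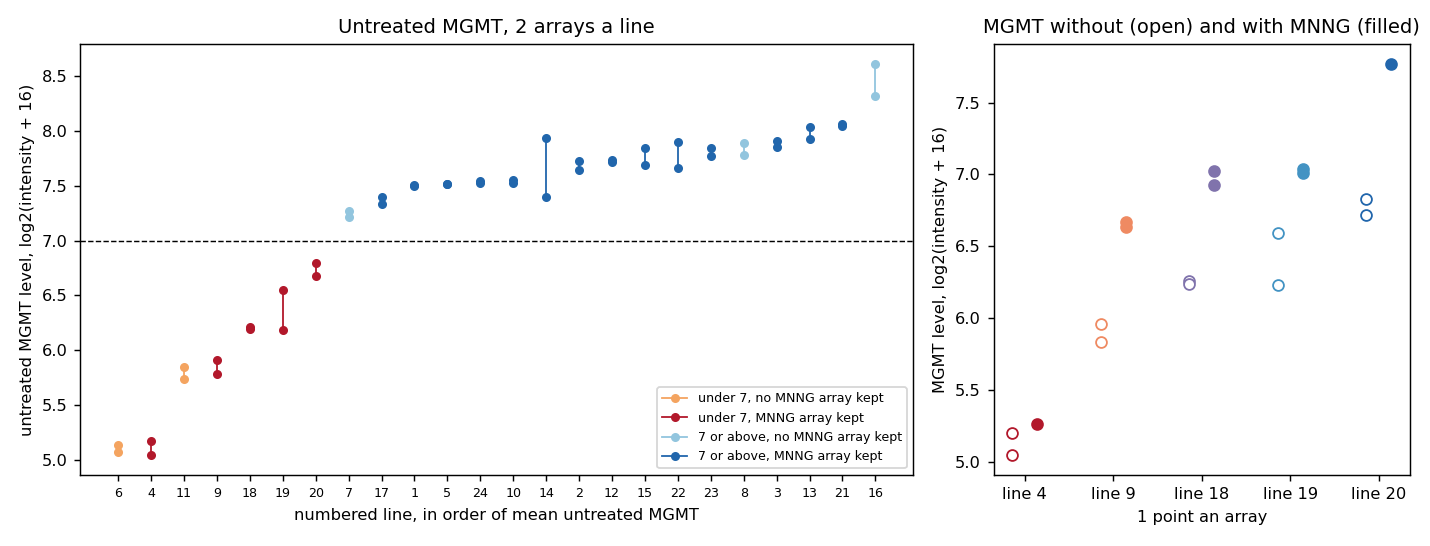
MGMT level (log2 of intensity plus 16) on both untreated arrays of all 24 numbered lines in order of their mean, with the threshold of 7 (left), and on each untreated (open) and MNNG (filled) array of the 5 low-MGMT lines (right). MNNG arrays lie above untreated arrays most clearly in lines 9, 18, 19 and 20.

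The arrays of the 5 lines had median deposited intensities of 27.9 to 64.4, and the correlation of duplicates over genes was 0.959 for the MNNG pair of line 18 and 0.985 to 0.997 for the other pairs. The number of arrays limits the precision. The MNNG array of line 4 (median 38.2) and MNNG replicate 2 of line 18 (median 27.9) stood apart: PRDM8 read 5.21 and 5.41 there and SALL4 5.21 and 5.41, close to the floor, while SALL4 read 8.43 to 10.64 on every other array of the 5 lines. PRDM8 was also near the floor, at 5.06, on the MNNG array of line 20 and read 6.08 to 9.00 on the rest. Of the 70 named changes that passed, 54 also passed without the dim array of line 18, and those named here that did not are given with their group. B-cell markers were high on untreated arrays, with MS4A1 at 11.6 to 12.7, CD79A at 10.43 to 10.96 and PAX5 at 10.48 to 10.83. Markers of T cells (CD3D, 5.83 to 6.11), monocytes (CD14, 5.40 to 5.67) and epithelium (EPCAM, 5.23 to 5.44) lay near the floor, while LYZ read 7.66 to 8.27 and COL1A1 6.94 to 7.32. Of the marker lists, 0 genes rose and 2 fell among 12 T and NK cell genes tested (KLRD1 by 0.28 and LCK by 0.27), 1 rose among 8 myeloid genes (VCAN, by 0.68), and none of 10 fibroblast and epithelial genes passed. In bulk RNA a smaller share of cells of one kind and less RNA per cell cannot be told apart.

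With MNNG 28 of 78 damage targets tested rose in the low-MGMT lines, and 22 of 32 genes of glycolysis and hypoxia and 10 of 22 of lipid synthesis fell. These gene lists were chosen with earlier results of these data known, so their shares are a description. Of 13842 genes tested, 1322 changed (9.55%) at an adjusted p under 0.05 in limma's moderated test on the 5 per-line differences between MNNG and untreated means, adjusted by Benjamini-Hochberg. Of these, 847 rose (6.12%) and 475 fell (3.43%). The split depends on scaling, since without quantile normalisation 276 rose and 835 fell, and with a gene's probe sets averaged 582 rose and 610 fell. Without the arrays numbered replicate 2, and so without line 4, the count of changed genes was 154. It was 261 without line 19, 324 without line 9, 365 without line 18, 573 without the dim array of line 18 and 0 when arrays failing the spike-in criterion were used as well. At an unadjusted p under 0.05 that last limma fit had 4669 genes. Of the 70 named changes that passed, 63 passed without line 4, 37 without line 9, 44 without line 18, 39 without line 19, 67 without line 20 and 51 with the probe sets of each gene averaged. Without replicate 2, 28 of the 69 that were tested passed. All changes below are log2 differences of intensity plus 16, which understates the change of genes with low levels.

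Among genes that rose in all 5 lines the largest mean change was in TNFSF4, which encodes OX40 ligand, a costimulatory protein on activated B cells. TNFSF4 read 7.84 and 7.96 untreated and 10.41 with MNNG in line 4, and 7.83 and 7.93 against 9.00 and 9.07 in line 9. It went from 7.20 and 7.31 to 8.81 and 8.97 in line 18, from 8.73 and 8.90 to 9.98 and 10.00 in line 19, and from 6.21 and 6.39 to 7.13 in line 20. No MNNG array overlapped the untreated arrays of its own line. The mean TNFSF4 change was 1.46 ± 0.20 (SE, n = 5 lines, limma adjusted p = 0.00565), and each line also passed on its own arrays.

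SULF2, a sulfatase that trims heparan sulfate outside the cell, showed the same pattern from a lower level. It read 5.76 on both untreated arrays of line 4 and 8.08 with MNNG. In line 9 SULF2 read 6.44 and 6.27 untreated and 7.76 and 7.98 with MNNG, in line 18 6.43 and 6.26 against 7.46 and 7.50, in line 19 6.37 and 6.42 against 7.56 and 7.54, and in line 20 5.98 and 5.92 against 6.78. The mean change was 1.39 ± 0.17 (SE, n = 5, limma adjusted p = 0.00435), and the groups of arrays did not overlap in any line. FHL2, a LIM-domain cofactor, rose by 1.13 and GAL3ST4, a galactose sulfotransferase, by 1.08. KIAA1671 rose by 1.09, MAL, a membrane protein of lipid rafts, by 0.87, and the cytochrome P450 genes CYP1B1 and CYP4F3 by 0.95 and 0.84. LCE1B rose by 1.21 in the test across lines, but its duplicates disagreed and its change passed in no single line. All of these genes changed upward in 5 of 5 lines. With probe sets averaged KIAA1671 rose by 0.37 and CYP1B1 changed by 0.38 without passing (limma adjusted p = 0.0942).

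Many damage targets, a list chosen with earlier results of these data known, were among the genes that rose. Of 91 listed genes 78 were tested, MGMT not counted, and 28 rose and 1 fell, with a median change of 0.32 against 0.03 over all genes tested. Over all genes tested 6.12% rose. The count of risen targets was 18 without the dim array of line 18, 8 without line 9, 9 without line 19, 15 without line 18 and 25 without line 4. It was 7 without replicate 2, and 19 of 77 tested with probe sets averaged. The median stayed between 0.19 and 0.37 when a line or a replicate number was left out. In the MGMT-expressing lines the median change of the list was 0.09.

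Among growth-arrest genes 3 of 11 rose. SESN1, a stress-induced sestrin that restrains mTOR signalling, rose by 0.82 (limma adjusted p = 0.0249), with changes of 1.72, 0.96, 0.74, 0.62 and 0.05 in lines 4, 9, 18, 19 and 20. GADD45A, a growth-arrest and repair-linked gene, rose by 0.75 (limma adjusted p = 0.0202), from 1.52 in line 4 to 0.32 in line 20. CDKN1A, the inhibitor of cyclin-dependent kinases known as p21, did not pass across the 5 lines: its mean change was 0.51 (limma adjusted p = 0.0928). CDKN1A read 10.46 and 10.39 untreated and 11.71 with MNNG in line 4, 9.90 and 9.95 against 10.71 and 10.88 in line 9, and 10.45 and 10.34 against 10.96 and 10.70 in line 18. In line 19 it read 11.12 and 10.96 untreated and 11.11 and 11.09 with MNNG, and in line 20 10.47 and 10.53 against 10.38. The arrays therefore separated in lines 4, 9 and 18 and overlapped or lay the other way in lines 19 and 20, and without line 20 the CDKN1A change was 0.66 (limma adjusted p = 0.0416).

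Of the feedback genes, which switch the damage signal off again, 3 of 9 rose and 1 fell. MDM2, the ubiquitin ligase of this loop, read 9.55 and 9.51 untreated and 11.46 with MNNG in line 4, and 9.95 and 9.87 against 10.52 and 10.68 in line 9. MDM2 went from 9.76 and 9.73 to 10.15 and 10.49 in line 18, from 9.25 and 9.71 to 10.28 and 10.29 in line 19, and from 8.88 and 9.29 to 9.68 in line 20. Its MNNG arrays lay above the untreated ones in all 5 lines, and the mean change was 0.92 ± 0.17 (SE, n = 5, limma adjusted p = 0.0149). With its 10 probe sets averaged MDM2 changed by 0.44 and did not pass (limma adjusted p = 0.0802). TRIAP1, a mitochondrial protein that limits apoptosis, rose by 0.65 (limma adjusted p = 0.00565). The phosphatase gene PPM1D changed by 0.41 and did not pass (limma adjusted p = 0.061). ZMAT3, an RNA-binding protein, fell by 0.46, but its 5 probe sets ranged from -0.46 to 0.50 and only 2 of them were negative. Nor did ZMAT3 pass without the dim array (limma adjusted p = 0.0827).

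Of the apoptosis genes 6 of 16 rose. AEN, a nuclease acting in apoptosis, rose by 0.46, the inflammatory caspase CASP1 by 0.49, and the death receptors FAS and TNFRSF10B by 0.38 and 0.42. Neither FAS (limma adjusted p = 0.0968) nor TNFRSF10B (0.0769) passed without the dim array. With probe sets averaged FAS changed by 0.28 (limma adjusted p = 0.0929) and TNFRSF10B by -0.15, its probe sets running from -0.57 to 0.42. BAX, which opens the mitochondrial membrane, changed by -0.34 (limma adjusted p = 0.128), and PMAIP1, a BH3-only protein, by 0.03 (limma adjusted p = 0.893). In a separate list of death receptors and caspases 6 of 17 rose, among them TNFSF10 (0.58), the ligand TRAIL, and XIAP (0.59), a caspase inhibitor. With probe sets averaged these changed by 0.24 and 0.15 and did not pass (limma adjusted p = 0.0854 and 0.218). None of 14 BCL2 family genes passed.

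Of the repair genes among the damage targets, 3 of 9 rose: RRM2B, a ribonucleotide reductase subunit, by 0.63, POLH, the translesion polymerase eta, by 0.46, and PCNA, the sliding clamp, by 0.37. POLH has 6 probe sets of which 4 were positive, and their average changed by 0.10 (limma adjusted p = 0.361). Without the dim array RRM2B (limma adjusted p = 0.0892) and POLH (0.0515) did not pass. The nucleotide excision repair genes XPC and DDB2 changed by 0.44 and 0.37 and did not pass, since both were below 0 in line 20 (-0.40 and -0.32) and above 0 in the other 4 lines.

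Metabolic and secreted targets included GDF15, a secreted stress cytokine, where 6 of 14 genes rose. GDF15 read 5.36 and 5.24 untreated and 7.35 with MNNG in line 4, 5.70 and 5.78 against 6.98 and 7.08 in line 9, and 5.59 and 5.65 against 6.37 and 6.62 in line 18. In line 19 GDF15 read 5.91 and 6.02 untreated and 6.73 and 6.60 with MNNG, and in line 20 it was 5.87 on both untreated arrays and 5.97 with MNNG. The mean GDF15 change was 1.00 ± 0.22 (SE, n = 5, limma adjusted p = 0.0224), and line 20 alone did not pass on its own arrays. SPATA18, a mitochondrial quality-control gene, rose by 0.97, ACER2, a Golgi ceramidase, by 0.78 and TIGAR, a phosphatase that lowers glycolytic flux, by 0.77. Averaging probe sets gave a rise of 0.38 for GDF15 and 0.54 for SPATA18. Among the remaining targets 7 of 19 rose, with ANKRA2 at 0.60, RPS27L at 0.49 and LAMP3, a lysosomal membrane protein, at 0.80. LAMP3 did not pass without the dim array (limma adjusted p = 0.0547) or without line 4 (0.0576).

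The promoters of a few risen targets hold a paired CATG core, the letters at the centre of the element that the transcription factor of this response binds, and they are shown because these genes moved together. The cores searched were CATGNNNNNNCATG, which is its own reverse complement, and CATGNNNNNNCAAG on both strands, in the 250 bases before and 50 after each RefSeq gene start (GRCh38.p14). Capitals mark the match, and sequences run along the gene's own strand.
GDF15, chr19:18386178-18386207: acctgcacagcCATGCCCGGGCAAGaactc
AEN, chr15:88621301-88621330: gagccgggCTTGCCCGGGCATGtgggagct
ANKRA2, chr5:73565782-73565811: aaaaatcaCATGGACCCTCAAGgagccggc
TRIAP1, chr12:120446335-120446364: tgtgggggaggCATGCACGGACATGaagcg
The AEN core is the reverse complement of the GDF15 core over all 14 bases. The matches in GDF15 and TRIAP1 begin at base 32 of the gene, and those in AEN and ANKRA2 lie before the gene start. CATGNNNNNNCATG occurred in 0.382% of 27195 promoters, in 0.235% of the 11067 promoters of genes tested, and in 2 of the 65 tested targets with a promoter in the table. CATGNNNNNNCAAG occurred in 0.596% and 0.425% of these and in 3 of the 65. Of the 21 risen targets with a promoter, 1 held the first core and 3 the second. A match describes letters only and is not a binding site.

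**Figure D2:**
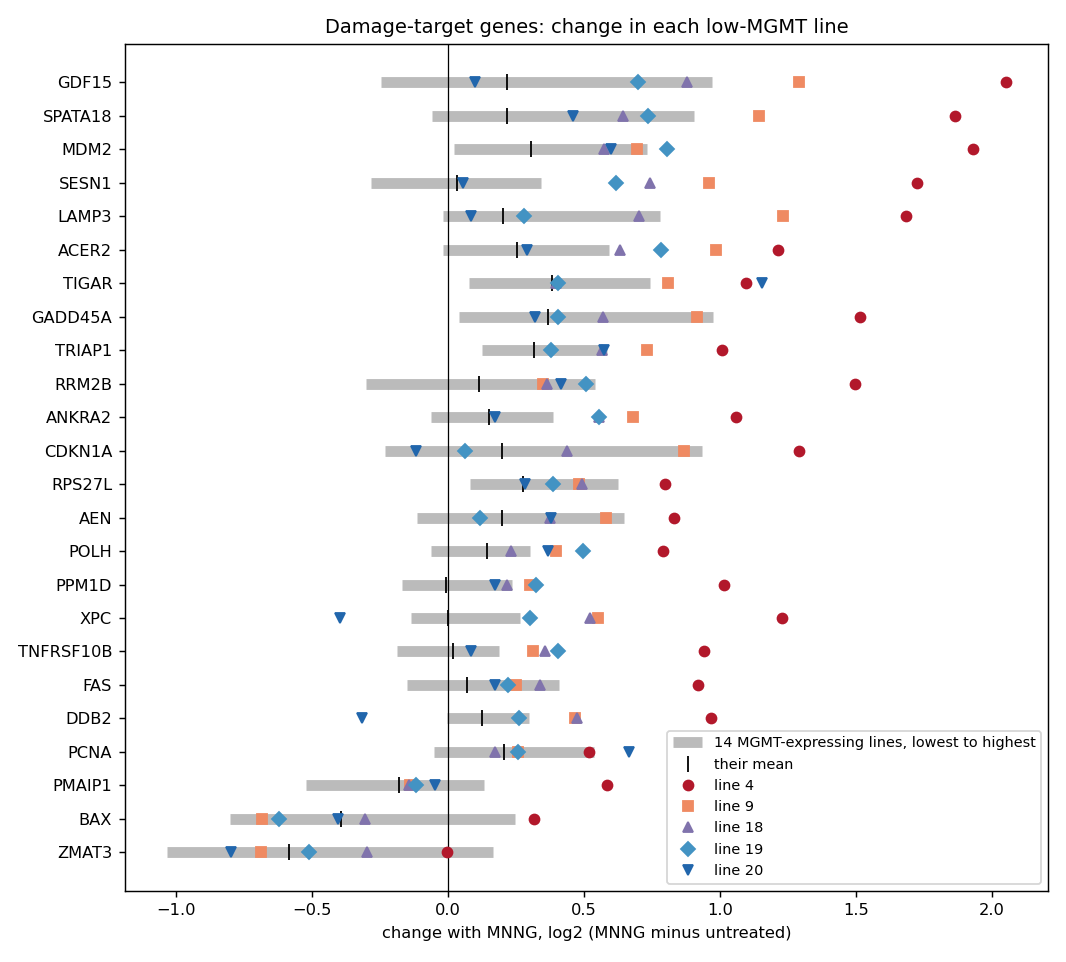
Change with MNNG (log2) of the main damage targets in each of the 5 low-MGMT lines, with the mean (tick) and the lowest-to-highest range (grey bar) of the 14 MGMT-expressing lines. Line 4 holds the highest point for most targets, such as 1.93 for MDM2 and 2.05 for GDF15, and line 20 the lowest for several, such as 0.10 for GDF15 and -0.12 for CDKN1A.

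Medians of the other repair and checkpoint lists were 0.03 to 0.10, against 0.03 over all genes tested. Over all genes tested 6.12% rose and 3.43% fell. Of 5 mismatch repair genes tested, MSH6, the partner that reads single mispairs, fell by 0.32 (limma adjusted p = 0.03) and the other 4 did not pass. Of 16 base excision and direct reversal genes 2 rose and 1 fell, of 16 homologous recombination and Fanconi genes 3 rose, and of 12 translesion genes 1 rose and 1 fell. Of 22 checkpoint genes only NBN passed. NBN encodes nibrin, a subunit of the complex that senses DNA breaks, and rose by 0.29 (limma adjusted p = 0.0221) in a narrow range of 0.22 to 0.34 over the 5 lines. With its probe sets averaged NBN changed by -0.054. Without the dim array neither MSH6 (limma adjusted p = 0.0545) nor NBN (0.101) passed.

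The list with the lowest median was glycolysis and the hypoxia response, where 22 of 32 genes fell and 0 rose, with a median of -0.48 against 0.03 over all genes tested (3.43% fell). The change was below 0 for all 32, and the line medians were -0.51, -0.46, -0.40, -0.30 and -0.58 in lines 4, 9, 18, 19 and 20. ALDOC, an aldolase, read 9.11 and 9.10 untreated and 6.99 with MNNG in line 4, 9.56 and 9.54 against 7.82 and 7.67 in line 9, and 9.56 and 9.57 against 8.58 and 8.44 in line 18. In line 19 ALDOC read 9.45 and 9.33 untreated and 8.69 and 8.74 with MNNG, and in line 20 10.77 and 10.90 against 9.44. Untreated and MNNG arrays separated in every line, and the mean change was -1.41 ± 0.17 (SE, n = 5, limma adjusted p = 0.00435). PFKFB4, which sets the level of a glycolytic activator, fell by 1.33, P4HA1, a collagen prolyl hydroxylase, by 1.12 and BNIP3, a mitophagy receptor, by 1.06. Averaged over probe sets PFKFB4 fell by 0.81 and P4HA1 by 0.50. The count of fallen genes in this list was 11 without line 9, 13 without line 18, 15 without line 19 and 19 without the dim array of line 18. It was 29 without quantile normalisation. In the MGMT-expressing lines the median was -0.32, and no gene of the list differed between the groups of lines at the threshold.

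Promoters of this list are shown for the letters ACGTG, or CACGT on the other strand, which form the core of the element bound by hypoxia-inducible factors. Capitals mark the match, and sequences run along the gene's own strand (RefSeq, GRCh38.p14).
ALDOC, chr17:28576906-28576935: ccccggaggagtCACGTagctctgcgacat
P4HA1, chr10:73096935-73096964: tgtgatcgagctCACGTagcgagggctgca
BNIP3, chr10:131982039-131982068: cgcacgcgccgcACGTGccacacgcacccc
These 5 letters occurred in 12 of the 28 tested list genes with a promoter (42.9%) and in 11 of the 20 fallen genes with one (55%), against 25.8% of the 11067 promoters of genes tested and 21.6% of all 27195. The letters are short and frequent, and a match is not a binding site.

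Sterol and fatty acid synthesis genes fell as well, 10 of 22 with 0 rising and a median of -0.27. SCD, the stearoyl-CoA desaturase, fell by 1.03, with changes of -1.22, -1.35, -1.23, -0.55 and -0.78 in lines 4, 9, 18, 19 and 20 (limma adjusted p = 0.00311). FADS2, another desaturase, fell by 0.77, and SREBF1, a transcription factor of lipid synthesis, by 0.70, and with probe sets averaged both fell by 0.37. Only 3 genes of this list passed without line 9 and 3 without line 18, 6 passed without line 19, and 15 passed without quantile normalisation.

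GTF2I, a general transcription factor of the TFII-I family, had the smallest spread between lines of the 10 largest falls. It read 7.83 and 8.28 untreated and 6.71 with MNNG in line 4, 8.28 and 8.53 against 7.09 and 6.59 in line 9, and 8.31 and 8.41 against 6.89 and 6.97 in line 18. GTF2I went from 8.46 and 8.30 to 7.02 and 7.00 in line 19 and from 7.93 and 7.57 to 6.59 in line 20. The arrays of the treatments did not overlap in any line, and the mean change was -1.37 ± 0.08 (SE, n = 5, limma adjusted p = 0.000143). In the MGMT-expressing lines GTF2I changed by -0.999 ± 0.424 (SD, n = 14), and the difference between the groups of lines did not pass (limma adjusted p = 0.326). GTF2I has near-identical copies in the genome, so its reading may be shared with them. ZNF395, a zinc-finger factor, fell by 1.23 (by 0.59 with probe sets averaged) and MYC, a growth-promoting transcription factor, by 0.71. PRDM8 and ABLIM1 fell by 1.21 and 1.15. Both were farthest from 0 in line 4, at -3.05 and -2.40, and neither passed without the dim array of line 18 (limma adjusted p = 0.315 and 0.0506).

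**Figure D3:**
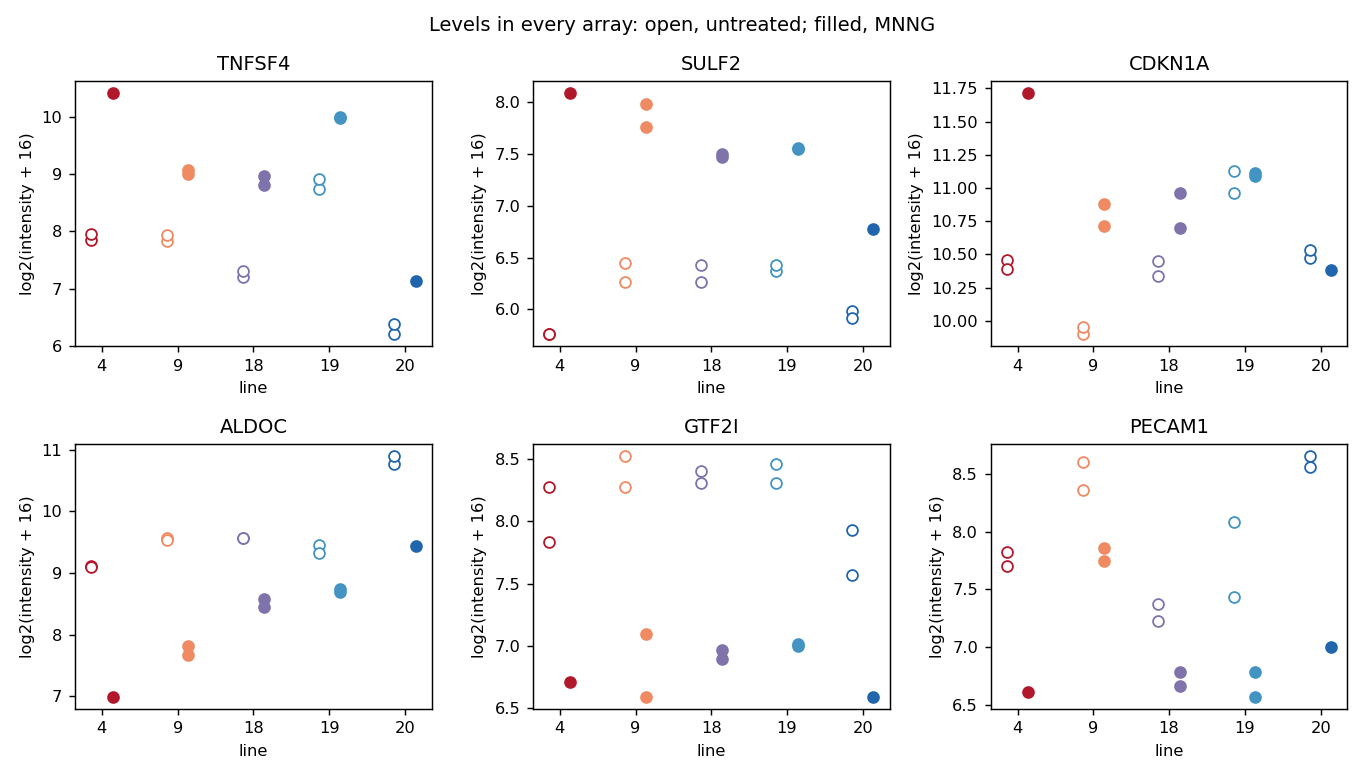
Level (log2 of intensity plus 16) of named genes on each array of the 5 lines, untreated (open) and with MNNG (filled). TNFSF4 and SULF2 lie higher and ALDOC, GTF2I and PECAM1 lower with MNNG in every line, while CDKN1A separates in lines 4, 9 and 18 but not in lines 19 and 20.

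Immune signalling genes moved in part, against 6.12% rising and 3.43% falling over all genes tested. Of 16 chemokine and cytokine genes 5 rose and 1 fell, led by CXCL10 (0.82), CCR7 (0.69), a homing receptor, and CCL22 (0.55). Of 19 costimulation genes 3 rose and 1 fell, with TNFSF4 the largest and CD58 rising by 0.26. CD274, the ligand of PD-1, changed by 0.50 without passing (limma adjusted p = 0.0891), from 1.10 in line 4 to -0.32 in line 20. Of 17 NF-kB genes 2 rose, NFKBIZ by 0.44 and IER3 by 0.58, and NFKB2 fell by 0.65. In the interferon list 2 of 27 rose and 3 fell, with IFIT3 at 0.48, XAF1 at 0.41 and IFI6 at -0.48. The 2 that rose are a share close to that of all genes. Without the dim array IFIT3, XAF1 and IFI6 did not pass (limma adjusted p = 0.0573, 0.0633 and 0.0508). With probe sets averaged NFKBIZ (0.17), NFKB2 (-0.35), IFIT3 (0.40) and XAF1 (-0.085) did not pass either. HLA class II had 1 of 14 genes falling.

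Genes of B-cell and plasma-cell identity pointed in different directions. Of 23 B-cell genes 0 rose and 4 fell, among them the kinase gene BLK (-0.47), CD37 (-0.44) and CD72 (-0.35). BLK and CD72 did not pass without the dim array (limma adjusted p = 0.0518 and 0.0502), and with probe sets averaged CD37 fell by 0.22. Of 13 plasma-cell genes 4 rose and 1 fell, including PRDM1, the regulator of plasma-cell differentiation, which rose by 0.72 (limma adjusted p = 0.0062), and by 0.43 with probe sets averaged. The median of the plasma-cell list was 0.24 in these lines and 0.23 in the MGMT-expressing lines.

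Proliferation lists changed little on average, and over all genes tested 6.12% rose and 3.43% fell. Of 34 replication genes 2 rose and 2 fell, with MCM2 and MCM3, subunits of the replicative helicase, falling by 0.36 and 0.37 and ORC6, an origin-binding subunit, rising by 0.37, though not without the dim array (limma adjusted p = 0.0621). Of 43 genes of the later cell cycle 2 fell, including MKI67 (-0.50). Line 20 stood apart here: its median over the replication list was 0.29 against -0.12 to 0.00079 in the other 4 lines. CCNE2, a cyclin of S-phase entry, changed by 1.06 in line 20, which has 1 MNNG array. Across the low-MGMT lines the 2 CCNE2 probe sets went opposite ways (0.30 and -0.16). Their average changed by 0.068 and did not pass (limma adjusted p = 0.78). The line 20 median over ribosome biogenesis genes was 0.35, against -0.11 to 0.18 in the others. Outside proliferation, 10 of 34 oxidative phosphorylation genes rose, above the share of all genes, and 1 fell. NDUFB8 changed by 0.32, ATP5ME by 0.31 and NDUFV1 by -0.30. With probe sets averaged NDUFB8 read 0.099 and NDUFV1 -0.16, neither passing. The median of this list was 0.12 here and 0.11 in the MGMT-expressing lines.

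**Figure D4:**
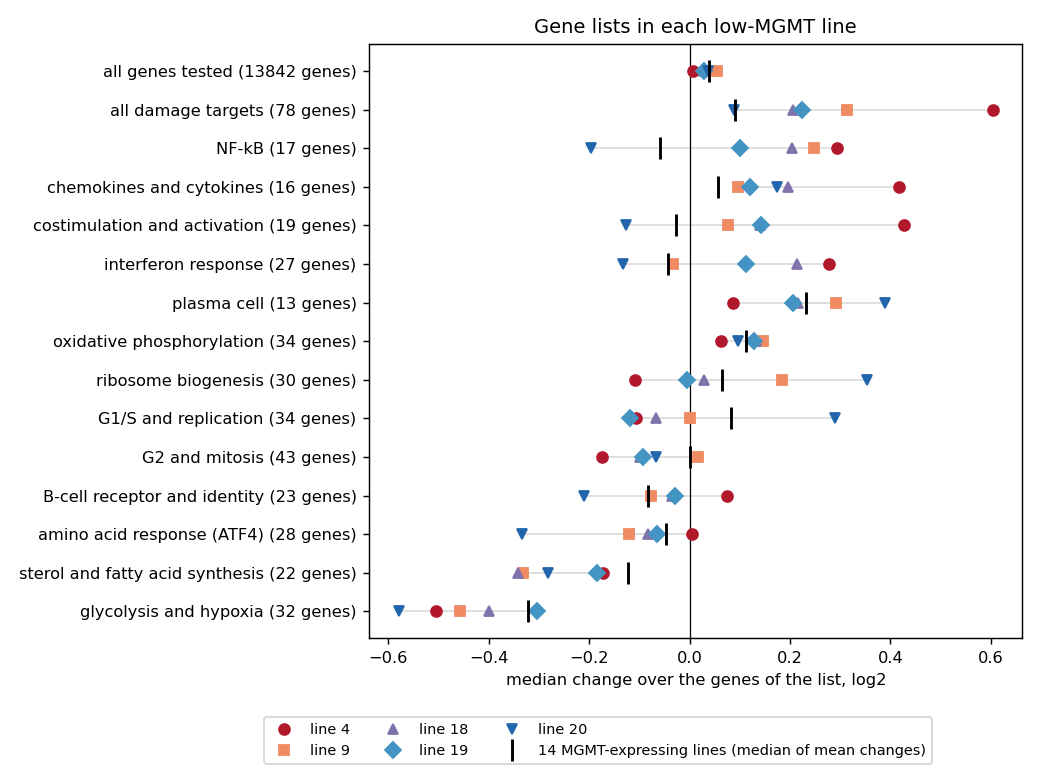
Median change with MNNG (log2) over the genes of each list, 1 point for each low-MGMT line and a tick for the MGMT-expressing lines. The damage targets run from 0.09 in line 20 to 0.60 in line 4 and glycolysis and hypoxia from -0.58 in line 20 to -0.30 in line 19.

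The low-MGMT lines differed from the MGMT-expressing lines in 70 genes (0.506%) in a limma test of the difference of per-line changes. Of these, 48 changed more upward in the low-MGMT lines (0.347%) and 22 more downward (0.159%). Damage targets supplied 7 of the 48, and none of the 22. TNFSF4 changed by 1.46 here and 0.34 in the 14 lines, whose changes ran from -0.09 to 0.94, a difference of 1.12 ± 0.20 (SE, limma adjusted p = 0.0144), and 4 of the 5 lines lay above all 14. SULF2 differed by 1.09, GAL3ST4 by 0.94, FHL2 by 0.87 and NBN by 0.31, and in these genes all 5 lines lay above all 14, as they did in 0.159% of all genes (in 0.0433% all 5 lay below all 14). SESN1 differed by 0.78, since its mean change in the MGMT-expressing lines was 0.03. Other genes with a more upward change were SPATA18 (0.75), PXT1 (0.75), CYP4F3 (0.75), FEZ1 (0.75), F2R (0.65), MAL (0.59), ACER2 (0.53), ANKRA2 (0.45) and TNFRSF10B (0.40). With probe sets averaged 6 of the 17 named differences tested passed: TNFSF4, GAL3ST4, FHL2, SESN1, PXT1 and CYP4F3. Among the rest were SULF2 (0.82, limma adjusted p = 0.0577), NBN (0.15, 0.318), FEZ1 (0.31, 0.216) and TNFRSF10B (0.07, 0.724).

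Of the genes with a more downward change PECAM1, an adhesion receptor, was the largest: it fell in the low-MGMT lines by 1.02 (-1.15, -0.68, -0.58, -1.08 and -1.61 in lines 4, 9, 18, 19 and 20) and changed by 0.05 in the MGMT-expressing lines. The PECAM1 difference was -1.07 ± 0.18 (SE, limma adjusted p = 0.0111). With its 5 probe sets averaged, 3 of which were negative, PECAM1 fell by 0.27 and the difference was -0.30 and did not pass (limma adjusted p = 0.0617). CNTNAP2 differed by -0.66 and SHMT2, the mitochondrial serine hydroxymethyltransferase, by -0.33. The mean level of CNTNAP2 was 5.70, close to the floor, and only 1 of its 4 probe sets was negative. Neither gene passed without arrays whose median was under 30 (limma adjusted p = 0.239 and 0.19).

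Array brightness moved with this comparison. The log2 change of the array median with MNNG was -0.32 to 0.09 in the 5 low-MGMT lines (median -0.19) and -1.46 to 1.18 in the 14 others (median 0.53), where 12 of 28 untreated arrays had a median under 30 against 0 of 10 here. Its part in the differences was not tested. Without the 15 dim arrays, which left 12 of the 14 MGMT-expressing lines and all 5 low-MGMT lines, 73 genes differed, of which 26 were among the 70. With the change of the array median as a covariate 24 differed, 21 of them among the 70. TNFSF4, SULF2, GAL3ST4, FHL2, FEZ1, PXT1 and CYP4F3 passed in both. PECAM1 did not pass without the dim arrays (-0.77, limma adjusted p = 0.0771) but passed with the covariate, and for SESN1 it was the reverse (limma adjusted p = 0.0482 and 0.0566). Without quantile normalisation only PECAM1 passed. With probe sets averaged 16 genes differed, and with arrays centred on their median 20. Without line 4, 11 genes differed, without line 9 42, without line 18 25, and without line 20 423, a set that held all 70. With fewer lines left, 2 genes differed without replicate 1 and 0 without replicate 2. The 18 differences named here kept their sign in every one of these settings in which they were tested. CNTNAP2 was not among the genes tested with probe sets averaged.

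**Figure D5:**
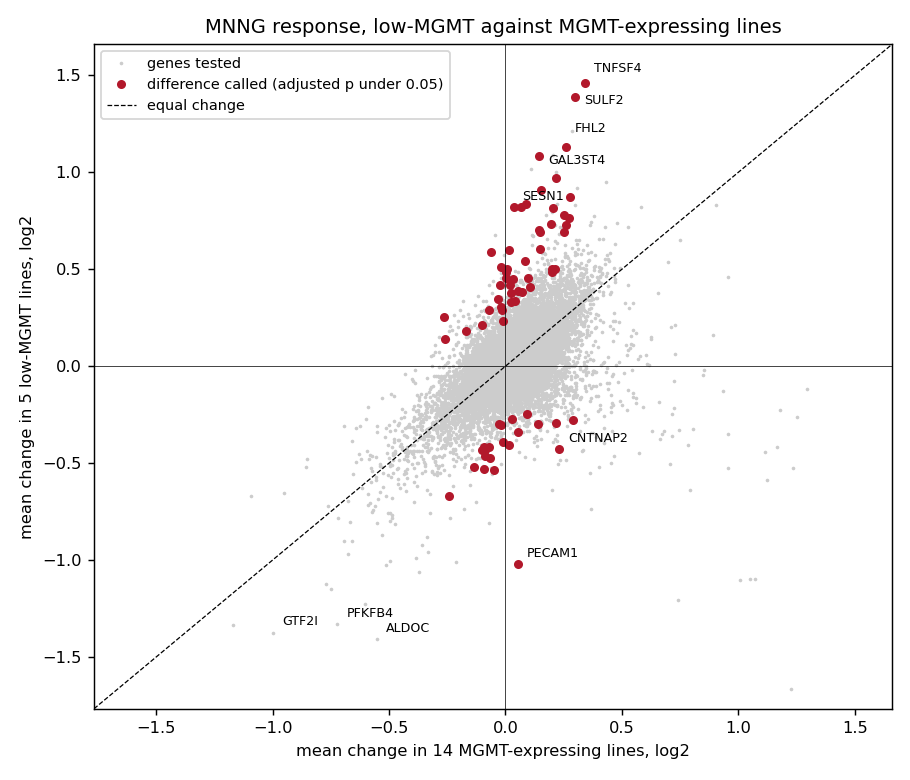
Mean change with MNNG (log2) in the 14 MGMT-expressing lines (horizontal) against the 5 low-MGMT lines (vertical), 1 point per gene, with genes whose difference passed in red. TNFSF4 and SULF2 lie far above the diagonal and PECAM1 far below it, while GTF2I and PFKFB4 are low on both axes.

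The 5 lines also differed from each other. In a limma F test over their single arrays, with 8 residual degrees of freedom, the change with MNNG differed among lines in 686 genes (4.96%), of which 32 were among the 78 damage targets tested. The count was 79 without line 4, 244 without line 9, 410 without line 20, 1365 without line 18 and 2775 without its dim array. It was 27 without quantile normalisation and 150 with arrays centred on their median. On their own arrays 1359 genes changed in line 4 (9.82%), 957 in line 9 (6.91%), 804 in line 18 (5.81%), 777 in line 19 (5.61%) and 2048 in line 20 (14.8%). Of the 78 damage targets 49 rose in line 4, where 5.48% of all genes rose, 28 in line 9 (4.61%), 28 in line 18 (3.71%), 23 in line 19 (3.98%) and 8 in line 20 (9.49%). In line 20 the share of targets was thus about that of all genes. Lines 4 and 20 have a single MNNG array each, so the spread was taken from the duplicate pairs of all 5 lines, including their own untreated pairs.

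The change of the damage targets was largest in line 4, which has the least MGMT, and smallest in line 20, which has the most. Since MGMT selected the lines, lines 4 and 20 rest on 1 MNNG array each and the genes share the same 5 lines, what follows is a description of 1 ordering, with no test. The MNNG array of line 4 also stood apart above, with SALL4 and PRDM8 near the floor, so the top place of line 4 rests on that array. The median change over the targets was 0.60 in line 4, 0.31 in line 9, 0.21 in line 18, 0.22 in line 19 and 0.09 in line 20. In 19 of the 78 targets the change was strictly smaller at each step from least to most MGMT, and in 0 strictly larger, against 2.69% and 2.9% of all genes. Lines 9, 18 and 19 have duplicate MNNG arrays, of which 1 in line 18 is the dim array. Over these lines 23.2% of the 13842 genes tested fell in steps and 2471 genes rose in steps. Of the targets 32 fell in steps and 10 rose in steps. LAMP3 fell at each step, with changes of 1.68, 1.23, 0.70, 0.28 and 0.09 from line 4 to line 20. LPXN, an adhesion adaptor, behaved alike with 1.18, 0.60, 0.36, 0.06 and -0.02. Both were named for a small p-value in the F test, which looks for any difference among lines and not for an order. CDKN1A, SESN1, GDF15, GADD45A and MAL were also ordered this way. Lines 18 and 19 were too close in the list median to be ordered by it. In the NF-kB list 8 of 17 genes were ordered from line 4 down to line 20 and 0 the other way.

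Some genes changed far more in 1 line than in the others. IL1B, a proinflammatory cytokine, read 6.83 and 6.71 untreated and 9.81 and 9.59 with MNNG in line 9, a change of 2.93, while the other 4 lines changed by -0.0031 to 0.33. ZAN rose by 2.91 and PRRX1 by 1.52 in line 9. In line 4 LINC00944 fell by 2.34, NPM3, a nucleolar chaperone, by 1.70 and PHF5A, a splicing factor subunit, by 1.14. On their own arrays LINC00944 also fell in line 19 (-0.42), and NPM3 (0.43) and PHF5A (0.65) rose in line 20. The falls in line 4 rest on the 1 MNNG array that stood apart above.

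TK6 and MT1 both read near the floor for MGMT. The median change of the damage targets was 1.00 in TK6, above that of line 4, and 0.09 in MT1, level with line 20. TNFSF4 changed by 4.87 in TK6 and 0.80 in MT1, SULF2 by 3.21 and 0.13, MDM2 by 2.95 and 0.50, and CDKN1A by 2.95 and 0.09. Some genes that rose in the low-MGMT lines were unlike TK6: LAMP3 changed by 0.47 there, SPATA18 by -0.05 and ACER2 by 0.03. ALDOC changed by -3.40 in TK6 and -0.33 in MT1, and GTF2I by -0.87 and -0.98. MT1 kept 1 MNNG array, and these values are set side by side without a test.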

How the data were processed

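The RNA of 104 samples was read on Affymetrix arrays of 54675 probe sets, 2 untreated and 2 MNNG arrays a line. The deposited values are linear PLIER intensities with a floor of 16, per the submitters' processing notes and the values. The sources used here give no version. Here log2(intensity + 16) was quantile normalised over the 82 arrays that passed the spike-in criterion. A gene took its probe set with the highest mean among the 41097 with 1 gene symbol (1801 have several and 11777 none), which gave 19775 genes, and the dimmest 30% were left out, leaving 13842. For 20 of the 80 genes examined most closely, at least 1 other probe set went the opposite way. Per-line differences (MNNG mean minus untreated mean) were tested with limma 3.58.1 in R 4.3.3 (lmFit, eBayes with trend), in the 5 lines alone and against the 14 others, and single arrays with an F test among the 5 lines. All p-values were adjusted by Benjamini-Hochberg over all genes tested. Each array is 1 sample of its line, and the line is the replicate in tests across lines.

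The rule for named genes took the 14 largest rises and 10 largest falls moving the same way in every line, the 12 largest differences, the 8 smallest p-values of the F test, up to 3 passing genes per list, and a fixed set of known genes. The lines, the 37 gene lists and this rule were chosen with earlier results of these data known. The fits were tested on simulated data. The pseudocount, scaling, filter, probe set choice, spread model, single lines, replicate numbers and failed arrays were varied, and 2 more alternatives (dim arrays left out, array median change as a covariate) were chosen after seeing the data. Same-numbered MNNG and untreated arrays did not deviate together (correlations of -0.623 to 0.137), so the numbers were not used to pair arrays. Sequences are from RefSeq tables of GRCh38.p14. Figures were drawn with matplotlib 3.10.9.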

Additional observations from a re-analysis of the deposited data

Results flagged for a closer look

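Among the changes of the 80 genes examined in the 5 lines, 8 had 1 line far from the other 4, with a gap to the nearest line above 0.71 of the range, Dixon's limit for 5 values. Chance gives this in about 1 in 20 groups of values. In line 4 these were MDM2 (1.93, nearest line 0.81), VWCE (1.91), RRM2B (1.50), PPM1D (1.01), FAS (0.92), PMAIP1 (0.58) and ABLIM1 (-2.40). In line 9 it was IL1B (2.93, nearest line 0.33), which rose on both MNNG arrays. Line 4 has 1 MNNG array, so its values have no duplicate, and that array stood apart in the array readings given above.

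The change with MNNG differed between the low-MGMT and the MGMT-expressing lines, by limma's test of the difference, in 18 of the genes named. It was more upward in the low-MGMT lines for TNFSF4 (1.12), SULF2 (1.09), GAL3ST4 (0.94), FHL2 (0.87), SESN1 (0.78), FEZ1 (0.75), PXT1 (0.75), SPATA18 (0.75), CYP4F3 (0.75), F2R (0.65), MAL (0.59), ACER2 (0.53), ANKRA2 (0.45), TNFRSF10B (0.40) and NBN (0.31). It was more downward for PECAM1 (-1.07), CNTNAP2 (-0.66) and SHMT2 (-0.33).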

How the results depend on the processing

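The number of genes that changed with MNNG, 1322, became 0 with all MNNG arrays, 3012 with the spread pooled over all panel lines, 2220 with array weights and 573 without dim arrays. It ran from 154 to 1247 when a line or a replicate number was left out, and was 1078 with a replicate block. The number that differed from the MGMT-expressing lines, 70, became 1 with values as deposited, 20 with arrays centred on their median, 16 with the mean of all probe sets, 2 with all MNNG arrays, 26 with a replicate block, 27 with a spread for each group and 24 with the array median as a covariate. It ran from 0 to 423 when a line or a replicate number was left out. The 0, without replicate 2, had 1040 genes at an unadjusted p under 0.05 in limma. The number that differed among the 5 lines, 686, became 27 with values as deposited, 150 with arrays centred and 404 without the trend. It became 2329 among 7 lines with all MNNG arrays, 28 with a replicate block and 2775 without dim arrays. It ran from 79 to 1365 when a line was left out. Without replicate 1 or 2 that test could not be fitted, since no residual degrees of freedom remained.

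With all MNNG arrays the sign turned for CNTNAP2 (0.13), LAMP3 (-1.13), GADD45A (-0.38), TRIAP1 (-0.54), FAS (-1.11), AEN (-0.67), RPS27L (-1.48), ORC6 (-0.21), CCR7 (-1.39), IER3 (-0.65), NDUFB8 (-1.91), PRDM1 (-0.15) and the median of the damage targets (-0.0048). With the mean of all probe sets it turned for ZMAT3 (0.041), TNFRSF10B (-0.15), NBN (-0.054) and XAF1 (-0.085). The cause was not tested, and the setting with all MNNG arrays has 7 low-MGMT lines instead of 5. Of 70 named changes that passed, 57 passed under every scaling and 20 under every alternative other than the one with all MNNG arrays. With the replicate block 66 of these 70 and 7 of the 18 named differences passed. Of the 18, 1 passed under every scaling and none under every alternative. Signal near the floor limits the genes with levels under 6, such as GDF15, PXT1 and CYP4F3 in untreated arrays.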

Other observations

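Stress lists and some others moved to unlike extents, against 6.12% rising and 3.43% falling over all genes tested. Of 28 genes of the amino acid response, driven by the factor ATF4, 0 rose and 7 fell, among them SHMT2 (-0.43), and the median of line 20 was -0.33 against -0.12 to 0.0037 in the other 4 lines. Of 20 genes of the unfolded protein response 4 rose and 4 fell. Of 15 heat shock genes 1 rose and 1 fell, with a median of 0.31 in line 20 and -0.02 to 0.09 in the others. Of 18 genes of the oxidative stress response 2 rose, and of 16 histone genes 4 rose and 1 fell. Of 20 immediate early genes 1 rose and 2 fell, and of 29 ribosomal protein genes 1 rose.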
